A study of Mus musculus with 6 samples.

Results

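The genes described here are 39 that carry glucose through the cell: transporters, hexokinases, the steps of glycolysis, lactate dehydrogenases and transporters, pyruvate entry, the tricarboxylic acid (TCA) cycle, itaconate synthesis, the hypoxia factor Hif1a and the pentose phosphate pathway. They were chosen by name, with earlier results of these data known, from the 34797 gene names of a mouse expression array. A gene with several probes was represented by its brightest probe. All 39 were found on the array under their listed names, with 61 probes in all, and all 39 were well above background on all 6 arrays. Irg1 is the older symbol of Acod1, Pkm2 of Pkm.

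The study compared C57BL/6 mice that carry or lack TIARP, a protein encoded by Steap4. Macrophages were collected from the peritoneal cavity 3 days after thioglycollate, an irritant that draws phagocytes into the cavity. Neutrophils were taken from the spleen by magnetic selection for Ly6G. Each group was hybridised to 1 single-colour array. The 6 groups were TIARP+/+ (WT) macrophages, TIARP-/- (KO) macrophages, WT and KO macrophages stimulated with TNFα for 24 hours, and WT and KO splenic neutrophils. Strain and thioglycollate are shared by both genotypes, and no source used here gives the age of the mice or how the deletion was made. The series text speaks of 3 mice, and no source used here says whether their RNA was pooled on each array. A culture time is labelled for the TNF arrays only, so TNF and time in culture cannot be told apart.

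Glycolysis splits glucose to pyruvate in the cytosol, and pyruvate either becomes lactate or enters the mitochondrion and the TCA cycle. Macrophages that meet an inflammatory signal are known to raise glucose uptake and glycolysis, partly through the hypoxia-inducible factor HIF-1α, and to divert the TCA intermediate cis-aconitate to itaconate through the enzyme encoded by Irg1. Neutrophils rely mainly on glycolysis and hold few mitochondria, and the pentose phosphate pathway supplies both cell types with NADPH.

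Levels are given as the signal in percent of the array's own 75th percentile over all gene probes, so that 100 marks that percentile. They compare 1 probe between arrays and not 1 gene with another. With 1 array per group, no difference has a replicate check and no p-value is given. A gene was called higher or lower where the levels differed at least 2-fold, a log2 difference of 1, and the brighter array was well above background. Within an array the 10 spots of the Irg1 probe had a standard deviation of 0.02 to 0.05 on the log2 scale. For the dimmer Pfkm probe it was 0.033 to 0.098, widest on the neutrophil arrays. The median over 268 probes with repeat spots was 0.062. These values cover spotting error only.

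The 75th percentile signal was between 224 and 490 intensity units, between 56.6% and 62.2% of probes were well above background, and 0 spots were saturated. The single Steap4 probe read 35.7, 11.4 and 21.1 on the WT macrophage, WT macrophage with TNF and WT neutrophil arrays, and 20.3, 3.79 and 16.1 on the matching KO arrays. It passed the background limit on 5 of the 6 arrays, all but that of KO macrophages with TNF. No source used here says whether it lies in the deleted part, so it does not check the labels. The 10 macrophage markers were all well above background on all 6 arrays, neutrophil arrays included. The summed level of 10 neutrophil markers was 16084 and 43570 on the WT and KO macrophage arrays, 21966 and 48391 with TNF, and 232717 and 274778 on the WT and KO neutrophil arrays. B-cell markers summed to 57917 and 54344 on the neutrophil arrays against 515 to 2086 on the macrophage arrays, so B-cell RNA was present in the Ly6G samples. In bulk RNA, fewer cells of a type and less RNA per cell cannot be told apart.

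The promoters of the 6 members that were higher with TNF in both genotypes are shown because they share that call. Each run holds the 250 bases before the RefSeq transcription start (build GRCm38.p6), 5′ to 3′ on the gene's strand. Capitals mark the core of the hypoxia response element, ACGTG or GCGTG, on either strand, so that CACGT and CACGC are the same core read from the opposite strand. The core ACGTG overlaps the E-box CACGTG.
Irg1, chr14:103046762-103047011, plus strand: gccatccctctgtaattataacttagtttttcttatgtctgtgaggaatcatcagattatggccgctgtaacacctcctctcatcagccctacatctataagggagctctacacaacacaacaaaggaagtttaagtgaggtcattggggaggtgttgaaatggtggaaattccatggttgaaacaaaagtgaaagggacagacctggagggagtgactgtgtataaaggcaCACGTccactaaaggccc
Slc2a1, chr4:119108495-119108744, plus strand: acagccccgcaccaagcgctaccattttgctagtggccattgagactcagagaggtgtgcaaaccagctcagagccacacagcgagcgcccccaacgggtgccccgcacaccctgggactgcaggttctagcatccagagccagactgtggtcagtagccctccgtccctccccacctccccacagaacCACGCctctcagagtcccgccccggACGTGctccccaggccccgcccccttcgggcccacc
Slc2a6, chr2:27027999-27028248, minus strand: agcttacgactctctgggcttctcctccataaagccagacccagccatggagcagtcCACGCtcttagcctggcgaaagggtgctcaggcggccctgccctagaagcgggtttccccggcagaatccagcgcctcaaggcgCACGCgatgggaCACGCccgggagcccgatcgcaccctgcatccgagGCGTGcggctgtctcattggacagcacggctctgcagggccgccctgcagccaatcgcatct
Slc16a3, chr11:120948817-120949066, plus strand: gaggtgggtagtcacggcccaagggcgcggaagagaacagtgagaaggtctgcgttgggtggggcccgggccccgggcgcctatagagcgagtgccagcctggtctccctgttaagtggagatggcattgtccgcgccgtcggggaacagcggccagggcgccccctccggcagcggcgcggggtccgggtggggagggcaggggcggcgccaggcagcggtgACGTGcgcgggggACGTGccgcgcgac
Pgk1, chrX:106186850-106187099, plus strand: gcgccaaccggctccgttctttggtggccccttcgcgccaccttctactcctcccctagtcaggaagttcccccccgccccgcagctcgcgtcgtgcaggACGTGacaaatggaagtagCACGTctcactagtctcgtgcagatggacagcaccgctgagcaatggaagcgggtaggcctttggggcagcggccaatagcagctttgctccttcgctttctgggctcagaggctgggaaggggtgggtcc
Mdh2, chr5:135778399-135778648, plus strand: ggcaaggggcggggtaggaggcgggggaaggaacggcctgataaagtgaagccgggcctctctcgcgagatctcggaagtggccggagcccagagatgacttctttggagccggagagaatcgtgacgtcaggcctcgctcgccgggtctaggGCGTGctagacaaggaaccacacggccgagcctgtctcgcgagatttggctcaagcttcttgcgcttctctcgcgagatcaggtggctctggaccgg
The single core of Irg1 begins 18 bases before the start, and Slc2a6 holds 4 cores in its window. Of the members 37 were matched in the RefSeq promoter table, all but Idh3a and Slc2a3, in 56 windows, and 46 of those windows (82.1%) held at least 1 core. By gene, 34 of the 37 held a core, so its presence does not set the 6 shown apart from the other members. The core was present in 38.6% of 32851 windows of all genes and in 44.0% of the 21263 windows of protein-coding genes. Both forms of the core contain CG, and the windows compared were not matched for base composition. The E-box was present in 8 of the 56 windows and in 6.02% of all windows. The NF-kB consensus, searched on both strands, was present in 1 of the 56 windows, a window of Ogdh, against 3.90% of all windows, and in none of the 6 shown. The antioxidant response element core TGACNNNGC was present in 4 of the 56 windows against 10.2% of all windows. A match is a string of letters and not a bound site, and several genes contribute overlapping windows.

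Irg1 had the largest difference with TNF among these genes. In all, 6 members were at least 2-fold higher with TNF in both genotypes: Irg1, the glucose transporters Slc2a1 and Slc2a6, the lactate exporter Slc16a3, the glycolytic enzyme Pgk1 and the TCA enzyme Mdh2. In WT macrophages 6 of 39 members were higher and 1 lower, against 4.4% higher and 5.98% lower of 24646 genes tested. In KO macrophages 7 were higher and 0 lower, against 4.43% and 3.71% of 24068 genes. The median log2 difference of the 39 was 0.40 in WT and 0.43 in KO, and the median of all genes tested was 0.02 and 0.03.

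Irg1, the enzyme that makes itaconate, read 271 on the WT macrophage array and 11416 with TNF, and 592 on the KO array and 12401 with TNF. On the neutrophil arrays it read 2312 in WT and 5432 in KO. The TNF arrays were therefore the 2 highest of 6, the neutrophil arrays came next, and the unstimulated macrophages were lowest. The log2 difference with TNF was 5.40 in WT, or 42.1-fold, and 4.39 in KO, or 20.9-fold. Both lay at the 99.9th percentile of all genes tested. The probe lies at chr14:103455171-103455231 on the deposited mm9 annotation.

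Among the transporters, Slc2a1, the widely expressed glucose carrier of the plasma membrane, read 2675 and 6312 in WT without and with TNF and 3317 and 6995 in KO. The log2 difference was 1.24 in WT and 1.08 in KO. Slc2a6, a glucose transporter family member found on lysosomes, read 1166 and 5734 in WT and 1657 and 4929 in KO, log2 differences of 2.30 and 1.57. Its other probe gave 2.27 and 1.40. Slc2a3, the high-affinity glucose carrier of neutrophils and neurons, did not pass 2-fold in either genotype: it read 38.4 and 34.8 in WT and 92.1 and 65.3 in KO. Of the carriers of this family, Slc2a1 and Slc2a6 were thus high with TNF and Slc2a3 was not.

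**Figure D1:**
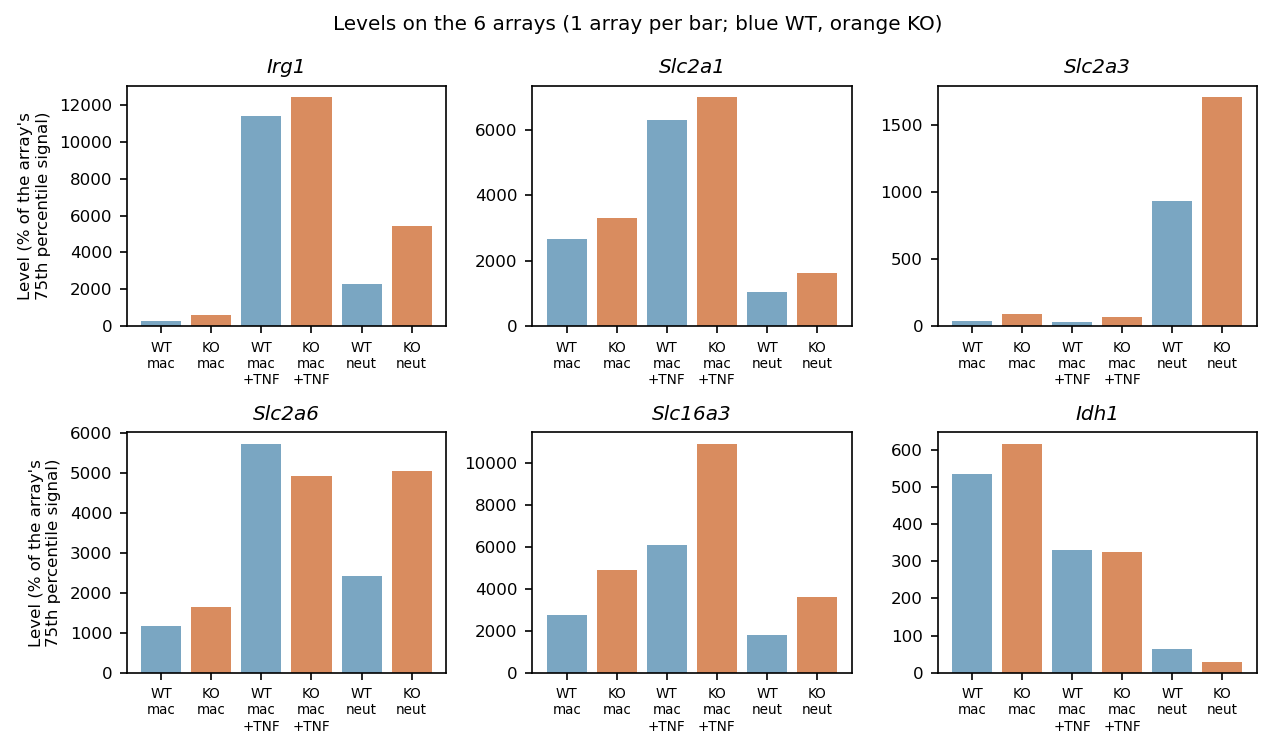
Levels of 6 member genes on the 6 arrays, 1 bar per array (blue WT, orange KO), as percent of each array's 75th percentile signal; mac is macrophages, neut is splenic neutrophils, and each panel has its own axis from 0. Irg1 stands at 11416 and 12401 on the TNF arrays against 271 and 592 without TNF, Slc2a3 at 936 and 1704 on the neutrophil arrays against 92.1 or less on the macrophage arrays, and Idh1 at 63.1 and 28.1 on the neutrophil arrays against 326 or more.

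The hexokinases, which trap glucose as glucose 6-phosphate, did not pass the 2-fold rule with TNF. Hk2, the inducible form, read 570 and 1000.0 in WT and 533 and 1058 in KO, log2 differences of 0.81 and 0.99, just inside the limit. Hk3, the myeloid form, read 2823 and 2225 in WT and 3200 and 2285 in KO, differences of -0.34 and -0.49. Hk1, the general form, read 25396 and 27263 in WT and 28885 and 32612 in KO, differences of 0.10 and 0.18. Of the 3 hexokinases, Hk2 alone came near 2-fold.

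The 12 members that carry or regulate glycolysis from glucose 6-phosphate to pyruvate were mostly above 0, and Pgk1 alone passed 2-fold. Of the 7 enzymes of the upper steps and of their regulation, 6 were above 0 in each genotype with medians of 0.47 in WT and 0.54 in KO, and 0 passed the rule. Pfkl, the liver form of phosphofructokinase, read 391 and 604 in WT and 603 and 943 in KO, differences of 0.63 and 0.64. Pfkp, the platelet form, read 333 and 507 in WT and 386 and 561 in KO, differences of 0.61 and 0.54. Pfkm, the muscle form, read 158 and 133 in WT and 141 and 136 in KO, differences of -0.25 and -0.05. The liver and platelet forms thus stood above 0 and the muscle form below. Tpi1, which interconverts the triose phosphates, read 6206 and 9512 in WT and 9709 and 16239 in KO, differences of 0.62 and 0.74. Aldoa, the aldolase that forms those trioses, read 31706 and 44018 in WT and 35148 and 54833 in KO, differences of 0.47 and 0.64. Pfkfb3, which makes the activator of phosphofructokinase, read 1216 and 1222 in WT and 1675 and 2220 in KO, differences of 0.01 and 0.41. Its level was flat with TNF in WT and highest of all 6 arrays in KO with TNF.

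All 5 enzymes of the lower steps were above 0 in both genotypes. Pgk1, the phosphoglycerate kinase that forms ATP, read 8750 and 18142 in WT and 11537 and 25782 in KO, log2 differences of 1.05 and 1.16. Its probe is placed on chr3 by the deposited annotation while RefSeq places the gene on X, so the probe may also read a copy of the gene. Eno1, the main enolase, read 18969 and 27812 in WT and 23166 and 32816 in KO. Pgam1, a phosphoglycerate mutase, read 16692 and 23614 in WT and 18752 and 27319 in KO. Pkm2, the pyruvate kinase that ends glycolysis, read 7926 and 9594 in WT and 8066 and 10095 in KO. These 3 and Gapdh had differences between 0.28 and 0.55 in WT and between 0.32 and 0.54 in KO. Gapdh, which oxidises the triose phosphate, read 49186 and 62929 in WT and 57800 and 76014 in KO. Its used probe, placed on chr7 although the gene is on chr6, gave 0.36 and 0.40, and the other 7 Gapdh probes gave 0.41 to 0.82 in WT and 0.46 to 0.91 in KO, so the brightest probe showed the least.

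At the lactate step the members parted. Slc16a3, the exporter of lactate from glycolytic cells, read 2759 and 6088 in WT and 4902 and 10891 in KO, log2 differences of 1.14 and 1.15. Its other probe gave 1.18 and 1.21. Ldha, the subunit that favours lactate formation, read 35203 and 46403 in WT and 44694 and 61262 in KO, differences of 0.40 and 0.45. Exporter and lactate-forming subunit were thus both highest in KO with TNF. Ldhb, the subunit that favours lactate use, read 979 and 403 in WT and 825 and 469 in KO. It was lower with TNF by the rule in WT, with a log2 difference of -1.28, and in KO its difference was -0.82. Slc16a1, the other lactate carrier, read 17.9 and 17.4 in WT and 17.2 and 23.2 in KO.

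Of the 9 TCA members only Mdh2 passed the rule. Mdh2, the mitochondrial malate dehydrogenase, read 12874 and 27741 in WT and 13514 and 27879 in KO, log2 differences of 1.11 and 1.04. Mdh1, its cytosolic counterpart, differed by -0.14 in both. Idh1, the cytosolic isocitrate dehydrogenase that makes NADPH, read 534 and 330 in WT and 616 and 326 in KO, differences of -0.70 and -0.92 that did not pass the rule. Idh2, the mitochondrial NADP-linked enzyme, read 3776 and 3659 in WT and 4817 and 4087 in KO, differences of -0.05 and -0.24. Idh3a, of the NAD-linked enzyme of the cycle, differed by 0.38 and 0.15. The median of the 9 was 0.23 in WT and 0.14 in KO. Citrate synthase, Cs, the entry enzyme of the cycle, differed by 0.43 and 0.41.

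Hif1a, the oxygen-regulated subunit of HIF-1, read 709 and 1208 in WT and 803 and 1827 in KO. It passed the rule in KO with 1.19 and not in WT with 0.77. Its second probe was dim, with levels of 13.9 or less and well above background on 4 arrays, and with both probes averaged the KO difference was 0.87.

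Of the pentose phosphate enzymes, G6pdx and Pgd are the steps that make NADPH. G6pdx read 2709 and 4258 in WT and 2356 and 3243 in KO, differences of 0.65 and 0.46. Pgd read 8781 and 15983 in WT and 6402 and 9364 in KO, differences of 0.86 and 0.55. Tkt, the transketolase of the non-oxidative arm, read 9391 and 13058 in WT and 8484 and 10985 in KO, differences of 0.48 and 0.37. Taldo1, the transaldolase of that arm, differed by 0.03 and -0.21. The first 3 were above 0 in both genotypes and inside 2-fold.

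**Figure D2:**
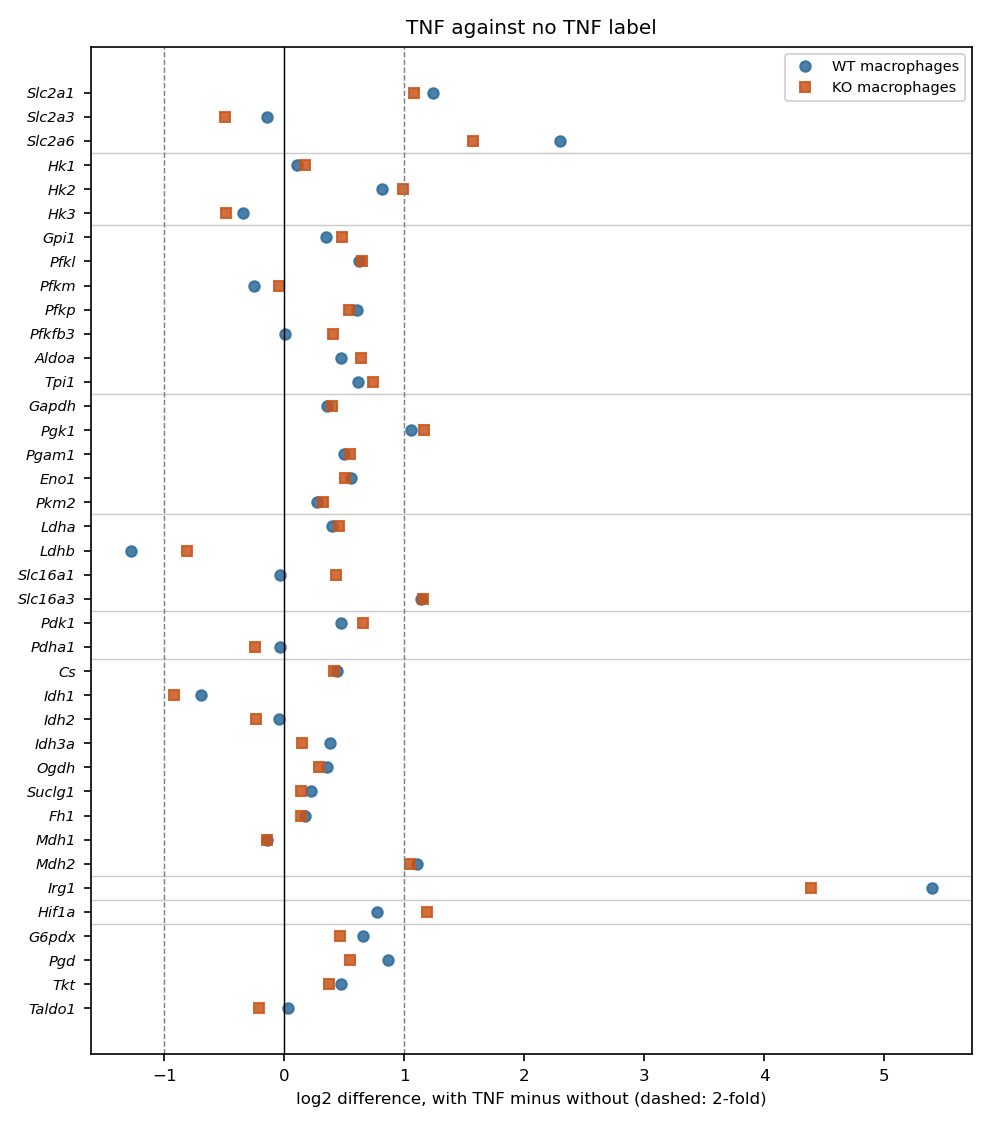
Log2 difference with TNF minus without for each of the 39 genes, ordered by role (grey lines part the roles), in WT (blue circles) and KO (orange squares) macrophages; dashed lines mark 2-fold. Irg1 lies at 5.40 and 4.39, Slc2a6 at 2.30 and 1.57, and Ldhb at -1.28 and -0.82, while most glycolytic enzymes lie between 0 and 1.

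Several of the TNF calls sat near the limit. Under quantile normalization Slc16a3, Mdh2 and Pgk1 gave 0.99, 0.97 and 0.94 in WT, and Slc2a1 and Mdh2 gave 0.97 and 0.88 in KO, all under 1. The summed level of 10 macrophage markers was 89497 and 84652 in WT without and with TNF and 105891 and 93614 in KO. Their median log2 difference with TNF was -2.08 in WT and -2.09 in KO, so the sums moved less than the median marker. In each genotype 6 of the 10 were lower by the rule, where 5.98% of all genes were in WT and 3.71% in KO. The part of these markers in the TNF differences was not tested.

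Of 98 other genes of these pathways, 93 were tested in WT and 3 were higher and 2 lower with TNF. In KO 92 were tested, with 9 higher and 2 lower. Of all genes 4.4% were higher and 5.98% lower in WT, and 4.43% and 3.71% in KO. Pcx, the pyruvate carboxylase that refills the TCA cycle, read 54.3 and 555 in WT and 30.4 and 287 in KO, log2 differences of 3.35 and 3.24. Gbe1, the glycogen branching enzyme, differed by 1.30 and 1.16, and Arrdc4, a glucose-sensitive arrestin, by 1.17 and 1.29. Pdk4, a kinase that shuts pyruvate dehydrogenase, read 10.8 and 2.52 in WT, a difference of -2.10. In KO it read 18.8 without TNF and was not well above background with TNF, at least 5.38-fold lower. Pdk1, the member of the same kinase family, read 136 and 188 in WT and 127 and 199 in KO, differences of 0.47 and 0.65. Their target Pdha1, a subunit of pyruvate dehydrogenase, read 535 and 520 in WT and 536 and 452 in KO.

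The difference between the 2 genotypes' TNF differences was measured from the same 4 arrays. For 38 of 39 members it stayed inside 2-fold. Irg1 was the exception, with a value of -1.01, and all genes tested gave 1.49% higher and 0.621% lower by the rule. The KO array with TNF was not lower for Irg1 than the WT array with TNF, at 12401 against 11416, and the array without TNF was higher in KO. With another background correction 0 members passed. Slc2a6 followed at -0.73, and Ldhb at 0.47 lay at the other end.

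KO macrophages without TNF had more of 2 members than WT macrophages. Slc2a3 was higher by 1.26 on the log2 scale, or 2.40-fold, at 92.1 against 38.4, and Irg1 by 1.13, or 2.19-fold, at 592 against 271. Of 39 members 2 were higher and 0 lower, where 4.08% and 1.56% of 24673 genes were, so the counts were close to the shares of all genes. The median of the members was 0.18 and that of all genes tested 0.07. Both genes were also at least 2-fold higher in WT neutrophils than in WT macrophages, a comparison that uses the same WT macrophage array. The summed neutrophil markers were higher on the same KO array, 43570 against 16084, with 6 of 9 tested neutrophil markers and 5 of 7 tested B-cell markers higher by the rule. Their part in the 2 differences was not tested.

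Under the 2-fold limit the signs can be read by role, and 60.7% of all genes tested were above 0. Slc16a3 read 4902 in KO and 2759 in WT, a difference of 0.83, and its other probe gave 0.82. Tpi1 and Pfkl followed with 0.65 and 0.63. Of the upper glycolysis enzymes 6 of 7 were above 0 with a median of 0.41, and of the lower ones 5 of 5 with a median of 0.23. The TCA members had 4 of 9 above 0. The 4 pentose phosphate enzymes were all below 0, with a median of -0.17, and Pgd, the lowest of all 39, read 6402 in KO and 8781 in WT, a difference of -0.46. After it came Ldhb at -0.25 and G6pdx at -0.20. These are differences of single arrays inside the 2-fold limit.

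With TNF, 0 members passed the rule between KO and WT in either direction, where 7.38% of 23927 genes were higher and 2.66% lower. The median of the members was 0.15 and that of all genes tested 0.05. The 3 highest were Slc2a3 at 0.91, with 65.3 in KO and 34.8 in WT, Pfkfb3 at 0.86, with 2220 and 1222, and Slc16a3 at 0.84, with 10891 and 6088. Pfkfb3's second probe, dim at 27.0 or less, gave 0.95. The 3 lowest were Pgd at -0.77, with 9364 in KO and 15983 in WT, G6pdx at -0.39, with 3243 and 4258, and Idh3a at -0.37. Of all genes tested 56.2% were above 0. All 7 upper glycolysis enzymes were above 0, with a median of 0.54, all 5 lower ones with a median of 0.24, and all 4 pentose phosphate enzymes below 0, with a median of -0.38. The 4 pentose phosphate members were below 0 in both macrophage comparisons. These use different arrays, but the labels carry the same mouse numbers with and without TNF, so the comparisons may not be independent. On the same arrays the 4 were also below 0 under normexp and quantile normalization, the 2 alternatives that change each of their values separately. The glycolysis members, Pfkm without TNF aside, were above 0, and under quantile normalization 5 of 7 upper and 4 of 5 lower ones were above 0 without TNF. Hif1a differed by 0.60 with its used probe, and by 1.25 with both probes averaged. Irg1 differed by 0.12. Idh1 differed by -0.02, and Mdh2 by 0.01, so both read nearly alike in the 2 genotypes.

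**Figure D3:**
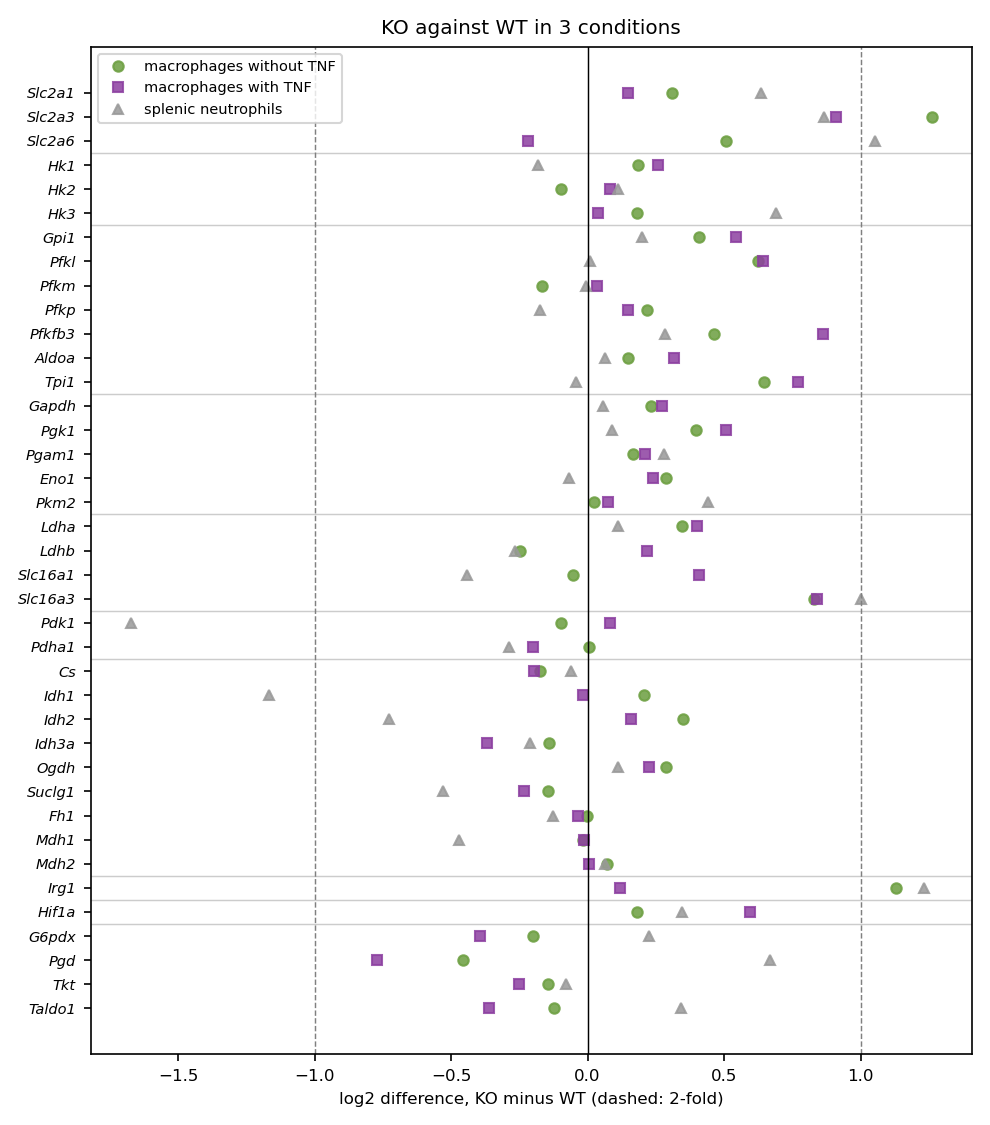
Log2 difference KO minus WT for each of the 39 genes, ordered by role, in macrophages without TNF (green circles), macrophages with TNF (purple squares) and splenic neutrophils (grey triangles); dashed lines mark 2-fold. Slc2a3 (1.26) and Irg1 (1.13) pass 2-fold in macrophages without TNF, no gene passes with TNF, and in neutrophils Irg1 (1.23), Slc2a6 (1.05) and Slc16a3 (1.00) pass upward and Pdk1 (-1.67) and Idh1 (-1.17) downward.

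Hypoxia genes outside the 39 were compared because Hif1a and glycolysis are joined to them through HIF-1. The list of 17 genes, which was drawn up with earlier results of these data known, had 16 tested in macrophages. Without TNF 4 were higher in KO and 0 lower, with a median of 0.56, where 4.08% of all genes were higher and 1.56% lower. With TNF 6 were higher and 0 lower, with a median of 0.65, where 7.38% were higher and 2.66% lower. On the same KO arrays 6 of 9 tested neutrophil markers were higher by the rule without TNF and 5 of 9 with it, and 5 of 7 and 6 of 7 tested B-cell markers. Their part in the hypoxia gene differences was not tested. Bnip3, a mitophagy receptor and textbook HIF-1 target, read 1316 in WT and 3265 in KO without TNF and 1728 and 6726 with TNF, differences of 1.31 and 1.96. Egln3, the oxygen-sensing prolyl hydroxylase that HIF induces, read 171 and 399 without TNF and 240 and 798 with TNF, differences of 1.23 and 1.73.

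Ankrd37, a further hypoxia target, read 312 and 817 without TNF and 380 and 1169 with it, differences of 1.39 and 1.62. Ndrg1, a stress and hypoxia response gene, read 462 and 966 without TNF and 215 and 608 with it, or 2.09-fold and 2.84-fold. Adm and Ddit4 passed only with TNF, at 1.14 and 1.18. Those last 2 were at least 2-fold higher in WT neutrophils than in WT macrophages. The glycolysis members, many of them known HIF targets too, stayed inside 2-fold between KO and WT macrophages. Of the further glucose transporter and glycolysis genes outside the members, 22 were tested in each comparison. Without TNF 2 were higher and 1 lower in KO, where 4.08% and 1.56% of all genes were. With TNF 4 were higher and 1 lower, where 7.38% and 2.66% were. The part of HIF-1 in these differences was not tested.

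**Figure D4:**
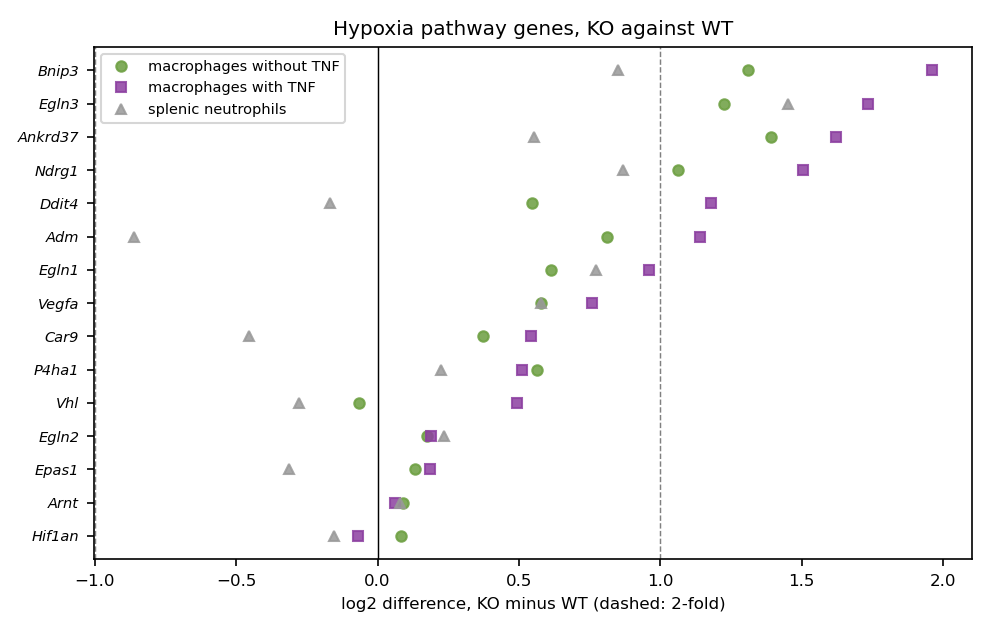
Log2 difference KO minus WT for the 15 hypoxia pathway genes, none of them among the 39, that were well above background on all 6 arrays, in macrophages without TNF (green circles), macrophages with TNF (purple squares) and neutrophils (grey triangles); dashed lines mark 2-fold. Bnip3, Egln3, Ankrd37 and Ndrg1 lie beyond 2-fold in both macrophage comparisons, up to 1.96.

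Across all 98 other pathway genes, 6 were higher and 1 lower in KO without TNF, of 93 tested, where 4.08% and 1.56% of all genes were. With TNF 11 of 93 were higher and 2 lower, where 7.38% and 2.66% of all genes were. Eno2, the enolase of neurons, read 173 in WT and 491 in KO, and 184 and 697 with TNF, or 2.84-fold and 3.78-fold. Its counterpart among the members, Eno1, differed by 0.29 and 0.24. Gys1, the muscle glycogen synthase, passed with TNF alone, at 1.19, and Me1, the cytosolic malic enzyme that makes NADPH, was lower with TNF at -1.27, with 537 in WT and 222 in KO. The summed fibroblast and mesothelium markers were also lower in KO, 14233 against 25413 without TNF and 11666 against 24432 with it, and their part in these differences was not tested.

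Splenic neutrophils differed between the genotypes in 5 members. Irg1 read 2312 in WT and 5432 in KO, a log2 difference of 1.23, or 2.35-fold. Slc2a6 read 2436 and 5050, a difference of 1.05, with 1.10 from its other probe. Slc16a3 read 1788 and 3581, a difference of 1.00. These 3 of 39 members were higher in KO, where 5.02% of 23988 genes were, so the count was close to the share of all genes. Slc16a3 lay at the limit and gave 0.99 under a different background correction and 0.98 with its probes averaged.

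Of the 39 members 2 were lower in KO neutrophils, where 4.74% of genes were, so this count too was close to the share of all genes. Pdk1, the pyruvate dehydrogenase kinase that hypoxia induces, read 97.5 in WT and 30.6 in KO, a difference of -1.67. It stayed between 127 and 199 on the macrophage arrays. Idh1 read 63.1 and 28.1, a difference of -1.17, and -0.71 under the other background correction, where it no longer passed. Idh2 was next at -0.73. The TCA members had 2 of 9 above 0, with a median of -0.21, and the median of all members was 0.06 against -0.01 for all genes. Slc2a3 read 936 and 1704, a difference of 0.86. Pgd, below 0 in both macrophage comparisons, was above 0 here at 0.67, as were G6pdx at 0.23 and Taldo1 at 0.34.

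The cell makeup of the 2 neutrophil arrays also differed. Macrophage markers summed to 59919 in WT and 36747 in KO, with 8 of 10 lower in KO by the rule. Erythroid markers summed to 68187 and 167231, with 8 of 8 higher. Neutrophil markers summed to 232717 and 274778, with 1 of 10 higher. The part of these cells in the 5 differences was not tested. Among the 98 other pathway genes 3 of 90 tested were higher and 2 lower, where 5.02% and 4.74% of all genes were. The higher ones were Egln3 at 1.45, Pfkfb4, a kinase that like Pfkfb3 acts on phosphofructokinase, at 1.03, with 1225 in WT and 2498 in KO, and P4ha2, a collagen prolyl hydroxylase, at least 2.17-fold higher. The lower ones were Pgam2, the muscle phosphoglycerate mutase, at 54.0 in WT and 16.3 in KO, or 3.31-fold lower, and Mxi1, a repressor related to the Myc network. Mxi1 read 44.8 in WT, was not well above background in KO, and was at least 9.56-fold lower.

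More members passed the rule between cell types than in any other comparison. In WT neutrophils 5 members were higher than in WT macrophages and 20 lower, against 25.9% and 18.8% of 25587 genes. In KO 3 were higher and 22 lower, against 25.1% and 19.4% of 25194 genes. The median of the members was -1.03 in WT and -1.14 in KO, and that of all genes tested was 0.14 and 0.11. In both genotypes 3 members were higher and 18 lower. These arrays differ in cell type, tissue, thioglycollate and isolation, which cannot be told apart. The neutrophil arrays also held RNA of other spleen cells. Against macrophages 8 of 8 B-cell markers were higher in each genotype, and 6 of 6 tested erythroid markers in WT and 8 of 8 in KO. The part of these cells in the member differences was not tested.

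The 3 members higher in both genotypes were Slc2a3, Irg1 and Slc2a6. Slc2a3 read 936 and 1704 on the neutrophil arrays and 38.4 and 92.1 on the macrophage arrays without TNF, log2 differences of 4.61 and 4.21, or 24.4-fold and 18.5-fold. Irg1 differed by 3.09 and 3.20, and Slc2a6 by 1.06 and 1.61. The other Slc2a6 probe gave 0.37 in WT and 1.12 in KO, and the WT difference was 0.91 under normexp and 0.72 with both probes averaged, so it did not hold at 2-fold. The related Slc2a1 was lower in neutrophils, at 1046 and 1624 against 2675 and 3317, differences of -1.35 and -1.03. The 2 plasma membrane carriers of glucose therefore stood on opposite sides, Slc2a3 high in the spleen samples and Slc2a1 high in the peritoneal ones.

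The lowest members in neutrophils were Ldhb, Pgam1 and Idh1 in WT and Ldhb, Idh1 and Pgam1 in KO. Ldhb read 34.4 and 28.6 against 979 and 825, differences of -4.83 and -4.85. Pgam1, a mutase of lower glycolysis, read 1555 and 1887 against 16692 and 18752, differences of -3.42 and -3.31. Idh1 read 63.1 and 28.1 against 534 and 616, differences of -3.08 and -4.45. Of the lower glycolysis enzymes 4 of 5 were lower in WT and 5 of 5 in KO, and of the upper ones 4 of 7 and 6 of 7. The shares of all genes that were lower were 18.8% in WT and 19.4% in KO. Tpi1 led the upper ones at 1067 and 1037 against 6206 and 9709, differences of -2.54 and -3.23. Pgk1 read 2047 and 2178 in neutrophils, Eno1 9085 and 8658, Gapdh 25154 and 26179, and Pkm2 1817 and 2470. Aldoa read 11374 and 11900, Pfkl 88.1 and 88.6, Pfkm 35.4 and 35.3, Pfkp 192 and 170, and Pfkfb3 611 and 745. Each of these 9 was below its macrophage level in both genotypes. Ldha read 9165 and 9901, differences of -1.94 and -2.17, and Slc16a1 read 36.5 and 26.9, differences of 1.03 and 0.64. The WT difference of Slc16a1 was 0.89 under normexp and 0.75 under quantile normalization, so it did not hold at 2-fold. Most glycolytic enzymes were thus lower on the neutrophil arrays relative to each array's 75th percentile.

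The hexokinases parted by form and by probe. Hk2 read 136 and 146 in neutrophils against 570 and 533, and Hk3 read 429 and 693 against 2823 and 3200, differences of -2.72 and -2.21. The used Hk1 probe was higher in neutrophils, at 57951 and 51147 against 25396 and 28885, differences of 1.19 and 0.82. The other 2 Hk1 probes were lower, by -1.29 and -0.90 in WT and -1.01 and -1.09 in KO, so the probes of this gene disagree in direction and the direction for Hk1 is not settled. Hif1a read 196 and 250 in neutrophils, differences of -1.85 and -1.68. The TCA members were nearest to the macrophages, with medians of -0.54 and -0.63. In each genotype 2 of 9 were lower by the rule, Idh1 and Idh2. Of all genes 18.8% were lower in WT and 19.4% in KO, so these counts were close to the shares of all genes. Idh2 read 1551 and 937, and Mdh2 read 9424 and 9851, differences of -0.45 and -0.46. Pdha1 read 242 and 198 and Pdk1 97.5 and 30.6. The pentose phosphate enzymes G6pdx, Pgd and Tkt read 1034 and 1209, 1843 and 2932, and 4594 and 4353, and all 3 passed the rule in WT and Pgd alone in KO.

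**Figure D5:**
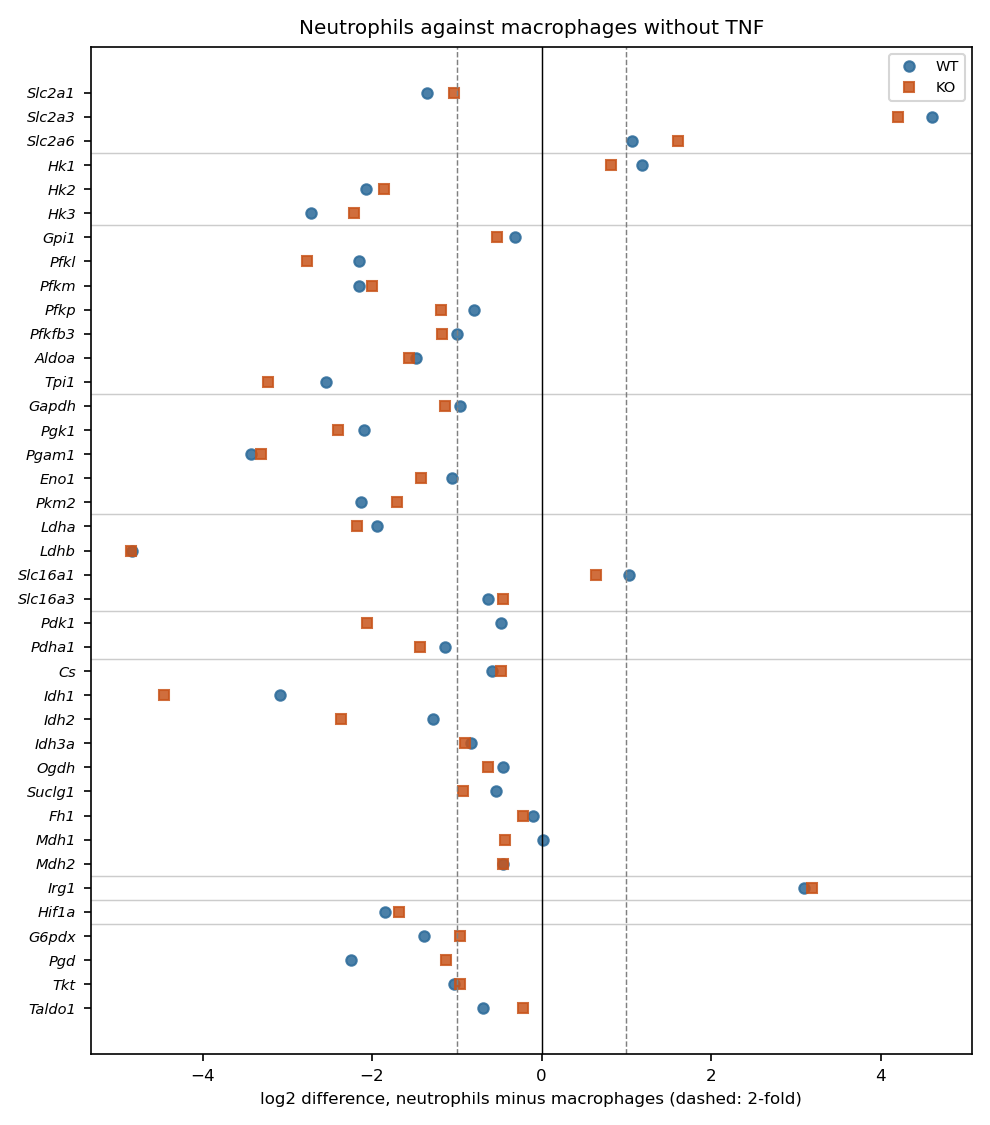
Log2 difference neutrophils minus macrophages without TNF for each of the 39 genes, ordered by role, in WT (blue circles) and KO (orange squares); dashed lines mark 2-fold. Slc2a3 lies at 4.61 and 4.21 and Ldhb at -4.83 and -4.85, and 33 of 39 genes in WT and 34 of 39 in KO lie below 0.

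Over the 6 arrays, 20 members had their highest level in KO macrophages with TNF and 9 in WT macrophages with TNF. The lowest level was on a neutrophil array for 34 members, 19 in WT and 15 in KO. In all, 31 members passed the rule in at least 1 of the 7 comparisons of 2 arrays. The 8 that passed in none were Gpi1 of glycolysis, Taldo1 of the pentose phosphate pathway and the TCA enzymes Cs, Idh3a, Ogdh, Suclg1, Fh1 and Mdh1. Fh1, the fumarase, stayed between 1232 and 1622 on the 6 arrays, and Mdh1 between 3423 and 4742.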

How the data were processed

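RNA of 6 samples, 1 per group, was hybridised to single-colour Agilent arrays. Per the file headers and the submitters' processing notes, the deposited intensity values are processed signals of Agilent Feature Extraction 10.7.3.1, already background-corrected by the authors' scanner software and not scaled between arrays. All arrays lie on 1 slide, so the slide does not differ between groups. With 1 array per group, array and group cannot be told apart. Coordinates of probes are those of the files, on mm9, and promoters are RefSeq's on GRCm38.p6.

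Control spots and between 101 and 121 outlier spots per array were left out, repeated spots of a probe were averaged, and log2 of the deposited intensity was taken minus each array's 75th percentile. Each gene took its brightest probe. A gene entered a comparison when well above background on either array, and was called only when the brighter array was. Where the dimmer array was not, the fold is a lower bound. It was taken against the higher of that array's own signal and the dimmest signal well above background there. With 1 array per group no test was run. Scripts used Python 3.11.15, numpy 2.4.6, pandas 2.3.3, R 4.3.3 and limma 3.58.1, and were tested on simulated data.

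The members and lists were chosen with earlier results of these data known. Named genes are all members past 2-fold in any comparison, 12 always named, the 3 highest and lowest per comparison, and probes of opposite sign past 2-fold. Alternatives were normexp with an offset of 50, quantile normalization, scaling to the median of detected probes, 2 filters on dim probes, the mean over a gene's probes and a 1.5-fold limit. Leaving out neutrophil-high genes and the counts of the hypoxia list were added after seeing the data.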

Additional observations from a re-analysis of the deposited data

How the results depend on the processing

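No paired analysis was possible because each group has 1 array and no test was run. Normexp background correction gave 1 member lower in KO neutrophils, 3 higher in WT neutrophils than macrophages, 0 lower in the difference of TNF differences and 0 hypoxia list genes higher in KO neutrophils. Quantile normalization gave 3 members higher with TNF in WT, 3 higher in WT neutrophils than macrophages and 1 hypoxia gene higher with TNF in KO. Averaging probes gave 1 member higher in KO with TNF (Hif1a), 3 higher in WT neutrophils than macrophages, and 2 and 1 hypoxia genes lower with TNF in WT and KO. It turned Hk1 in WT neutrophils against macrophages to -0.33. Requiring detection on all 6 arrays gave 1 hypoxia gene higher and 0 lower in KO neutrophils, and no filter gave 1 lower with TNF in KO. A 1.5-fold limit gave 13 members higher and 2 lower with TNF in WT, 12 and 2 in KO, 5 higher in KO without TNF, 6 higher and 1 lower with TNF, 7 higher in KO neutrophils, 5 higher in KO neutrophils than macrophages and 2 lower in the difference of TNF differences. For the hypoxia list it gave 1 higher with TNF in WT, 5 higher and 1 lower in KO, and 5 higher and 2 lower in KO neutrophils. The shares of all genes given above are at 2-fold in the main setting, so none of these counts can be set against them. Without genes at least 2-fold higher in WT neutrophils, 0 of 34 members tested were higher in KO without TNF, where 1.54% of 19175 genes were. That filter uses the same WT macrophage array as the difference and removes the 2 genes called, so it tests nothing about them. The last choice and those on the hypoxia list were made after seeing the data. The cause of these shifts was not tested. Normexp moved the median of all genes in neutrophils against macrophages by 0.23 in WT and 0.18 in KO, and quantile normalization by -0.15 in WT. Differences near 2-fold are therefore not settled by 1 array per group.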
